A study of Mus musculus with 5 samples.

Results

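The 7 genes described here form the core of Hedgehog signalling in mouse: Ptch1, Smo, Sufu, Gli1, Gli2, Gli3 and Hhip. They were taken by gene name from a table of 21667 genes, with the listed transcripts of each gene summed. All 7 were listed, in 14 transcripts. Hhip stood at the small offset that the table holds in place of 0 in 4 of 5 libraries, Gli2 stood there in the control library, and Gli1 was close to the detection floor in 1 forskolin library. The RNA came from whole back epidermis of wildtype C57BL/6 males at postnatal day 49 (7 weeks), shaved before treatment and carrying no engineered allele. 2 libraries came from skin given 10 µM forskolin, a plant diterpene that activates adenylyl cyclase, 2 from skin given 1.325 mM cAMP, and 1 library was labelled untreated and is called the control. The compounds were carried in DMSO and PLO lotion at 5 times the IC50 and applied 3 times within 5 days, in a study of how the cAMP-responsive factor Creb bears on the pace of the hair cycle. No label states that the control skin received the carrier or that libraries of a group came from different animals, so treatment, carrier and handling cannot be told apart in any comparison with the control.

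Hedgehog ligands bind the receptor Ptch1, which otherwise holds the membrane protein Smo inactive. Active Smo at the primary cilium frees the Gli transcription factors from Sufu, and Gli1, Ptch1 and Hhip are themselves classic targets of the pathway. cAMP enters through protein kinase A, which phosphorylates Gli2 and Gli3 and favours their processing to repressor forms. In skin, Shh made by the growing hair follicle signals to follicle cells and the neighbouring dermis and is needed for a new hair growth phase.

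Promoter windows are shown because the series concerns Creb, which binds cAMP response elements. RefSeq promoter windows on GRCm38.p6 matched 6 of the 7 genes: Gli2, Gli3, Ptch1, Smo, Sufu and Hhip. The 250 bases before each RefSeq start were searched on both strands for TGACGTCA (the full element), TGACG (its shorter form, which the full element contains) and GACCACCCA (the Gli site). Hhip held the full element at -75 to -68 from its start, and Sufu held the shorter form at -17 to -13. No match to any of these letters lay in the windows of Ptch1, Smo, Gli2 or Gli3, and no Gli site lay in any of the 6. Of 32851 RefSeq windows of this length, 1.55% held the full element, 17.8% the shorter form and 0.225% the Gli site. The windows with a match are printed with that of Ptch1, a target gene without one. Capitals mark the matches, and a match describes letters only.
Hhip, chr8:80058009-80058258, minus strand: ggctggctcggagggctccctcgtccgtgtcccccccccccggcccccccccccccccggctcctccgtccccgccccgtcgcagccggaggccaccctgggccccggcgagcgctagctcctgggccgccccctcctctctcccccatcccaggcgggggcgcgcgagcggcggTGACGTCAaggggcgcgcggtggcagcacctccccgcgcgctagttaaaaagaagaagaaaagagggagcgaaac
Sufu, chr19:46396646-46396895, plus strand: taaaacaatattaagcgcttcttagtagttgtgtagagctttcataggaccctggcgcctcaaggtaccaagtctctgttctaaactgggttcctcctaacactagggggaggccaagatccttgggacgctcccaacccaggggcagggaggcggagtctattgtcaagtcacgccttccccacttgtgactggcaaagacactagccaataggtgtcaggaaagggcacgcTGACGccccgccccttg
Ptch1, chr13:63565736-63565985, minus strand: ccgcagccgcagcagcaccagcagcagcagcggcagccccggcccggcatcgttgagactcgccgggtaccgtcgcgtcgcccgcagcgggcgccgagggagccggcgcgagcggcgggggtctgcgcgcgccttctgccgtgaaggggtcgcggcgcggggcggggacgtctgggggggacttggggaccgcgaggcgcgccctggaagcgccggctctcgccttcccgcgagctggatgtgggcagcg

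Levels are deposited CPM, which express reads relative to a library's total, and the estimated depth was 34200000 to 51700000 reads per library. The control stood apart: nuclear genes other than pseudogenes and rRNA genes took 25.9% to 38% of the treated libraries and 7.9% of the control, while mitochondrial genes took 43.1% to 58% and 69.3%. Values are therefore also given after median-of-ratios scaling, which divided the treated libraries by 1.12 to 1.64 and the control by 0.325. Keratinocyte identity was clear, with Krt14, a basal keratin, at 1057 to 2456 CPM in treated libraries and 271 CPM in the control. The detection floor, 3 estimated reads, lay between 0.0581 and 0.0878 CPM. It covers counting error only.

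**Figure D1:**
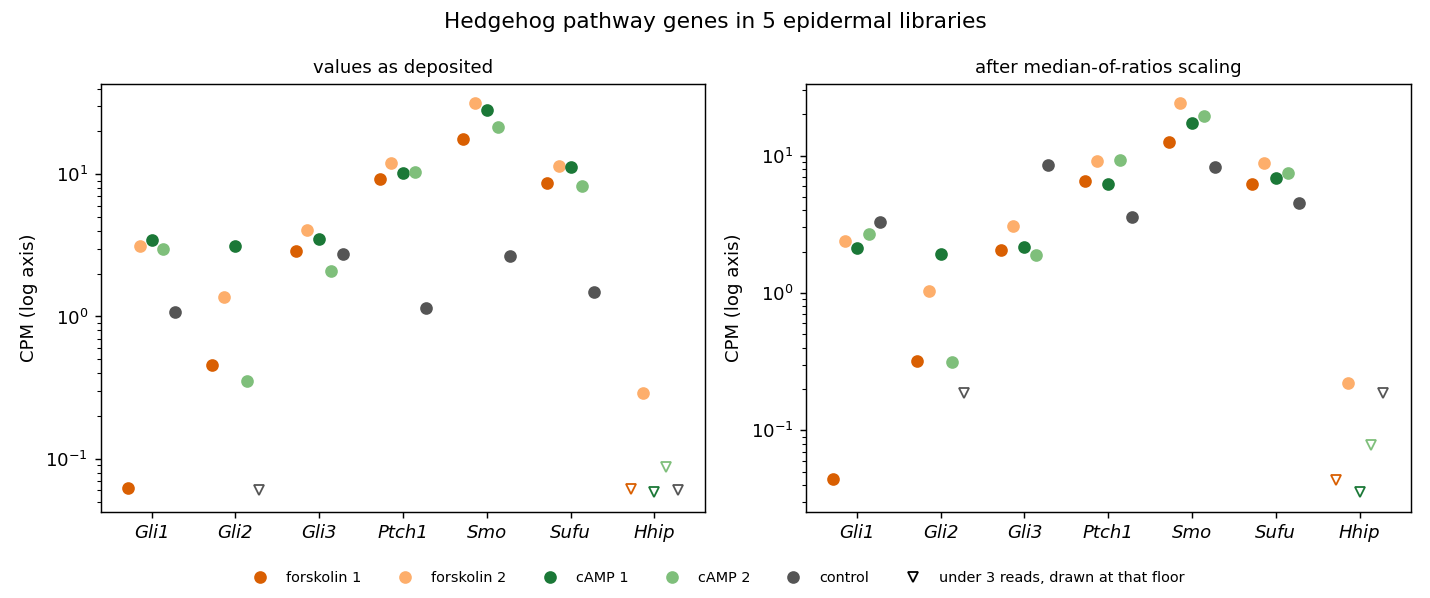
CPM of the 7 genes in each library on a log axis, as deposited (first panel) and after median-of-ratios scaling (second panel), with triangles for values under 3 reads drawn at the floor. As deposited, Smo, Ptch1 and Sufu lie higher in all 4 treated libraries than in the control. After scaling the treated and control points of Smo, Ptch1 and Sufu lie closer together, while Gli1 and Gli3 are highest in the control.

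Per kilobase of transcript, Smo had the highest level of the 7 genes in every library, at 4.67 and 8.53 CPM per kb with forskolin, 5.72 and 7.49 with cAMP and 0.707 in the control. Sufu came next among treated libraries at 2.28 to 4.49 CPM per kb, and Ptch1 followed at 1.32 to 1.62 CPM per kb. These 3 ranges did not overlap in the treated libraries. The highest Sufu level belonged to cAMP 2, where part of the reads were listed on a short transcript. The 3 Gli genes lay below and overlapped one another, with Gli1 at 0.0155 to 0.85, Gli3 at 0.256 to 0.493 and Gli2 at 0.0529 to 0.469 CPM per kb in treated libraries. The order differed in the control, where Gli3 (0.339 CPM per kb) stood beside Sufu (0.327) and Gli1 (0.265) stood above Ptch1 (0.165).

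Smo, the transducer of the signal, and Ptch1, its receptor and inhibitor, both rose in CPM as deposited with each treatment. Smo (ENSMUSG00000001761, chromosome 6, 29735503 to 29761365, plus strand) had 17.7 and 31.6 CPM with forskolin, 28.3 and 21.6 CPM with cAMP and 2.67 CPM in the control. Every treated library was above the control, and the forskolin libraries enclosed the cAMP pair. After median-of-ratios scaling Smo stood at 12.5 and 24.1 with forskolin, 17.3 and 19.4 with cAMP and 8.22 in the control, again with no overlap but a smaller gap.

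Ptch1 (ENSMUSG00000021466, chromosome 13, 63508328 to 63573460, minus strand) had 9.24 and 12 CPM with forskolin, 10.2 and 10.4 CPM with cAMP and 1.15 CPM in the control, which rested on 57.0 estimated reads. The treated libraries were close to one another and all above the control. After scaling they stood at 6.54 and 9.13 with forskolin and 6.21 and 9.32 with cAMP, against 3.55 in the control, so the order held. The ratio of Ptch1 to Smo within a library does not depend on scaling. It was 0.523 and 0.379 with forskolin, 0.359 and 0.481 with cAMP and 0.432 in the control, which lay inside the range of each treatment.

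Sufu (ENSMUSG00000025231, chromosome 19, 46396896 to 46488804, plus strand), the cytoplasmic inhibitor that binds Gli proteins, had 8.71 and 11.5 CPM with forskolin, 11.3 and 8.26 CPM with cAMP and 1.48 CPM in the control. It too was higher in each treated library as deposited. After scaling it stood at 6.16 and 8.78 with forskolin, 6.91 and 7.41 with cAMP and 4.55 in the control. The within-library ratio of Sufu to Smo was 0.493 and 0.365 with forskolin, 0.399 and 0.382 with cAMP and 0.553 in the control, so the control had the highest value.

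Across genes, the background of these comparisons was broad. With forskolin against control, limma called 66.7% of 13764 tested genes at an adjusted p under 0.05, 66.3% higher and 0.341% lower. With cAMP against control it called 65.6%, 65.1% higher and 0.436% lower. Against that background 3 of the 6 tested members (Ptch1, Smo and Sufu) were higher and 0 lower in each comparison, a share below that of all genes. The median change over the members was 1.52 with forskolin and 1.67 with cAMP on the log2(CPM + 1) scale, against 1.69 and 1.66 over all tested genes. With Gli2 at the lower bound set by the floor, the member medians were 2.29 and 2.25. That bound is a ratio of CPM without the added 1. No gene was moved to a bound in the medians over all genes, so medians with the bound are not comparable with them. Scaling brought the median of all genes to 0.21 and 0.20, and the shares called to 21.7% (14.9% higher, 6.79% lower) with forskolin and 22.7% (15.4% higher, 7.23% lower) with cAMP. In both comparisons 0 members were then higher and 1, Gli3, was lower, with medians of 0.65 and 0.74 (0.76 and 0.74 with Gli2 at its bound). The members at an unadjusted p under 0.05 numbered 3 with forskolin and 2 with cAMP after scaling.

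With forskolin against control, the log2 change of Smo was 2.75 ± 0.58 (SE; limma adjusted p = 2.31e-05), that of Ptch1 2.42 ± 0.59 (adjusted p = 0.000221) and that of Sufu 2.15 ± 0.59 (adjusted p = 0.000934). These stood at percentiles 87.7, 79.4 and 69.6 of the changes of all tested genes. After scaling they came to 1.0 ± 0.43 (adjusted p = 0.0995), 0.94 ± 0.45 (0.134) and 0.59 ± 0.44 (0.331), and none passed. Smo passed after scaling without forskolin 1 (1.44, adjusted p = 0.0269) and not without forskolin 2 (0.55, adjusted p = 0.498). With cAMP against control, which shares its control library, Smo changed by 2.81 ± 0.58 (adjusted p = 1.55e-05), Ptch1 by 2.39 ± 0.59 (0.000268) and Sufu by 2.11 ± 0.59 (0.00121). After scaling these were 1.07 ± 0.43 (adjusted p = 0.0794), 0.92 ± 0.45 (0.142) and 0.56 ± 0.44 (0.369). Both libraries of a treatment exceeded the control for these 3 genes, as they did for 92.9% of all tested genes with forskolin and 91.0% with cAMP as deposited, and for 51.1% and 48.8% after scaling.

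**Figure D2:**
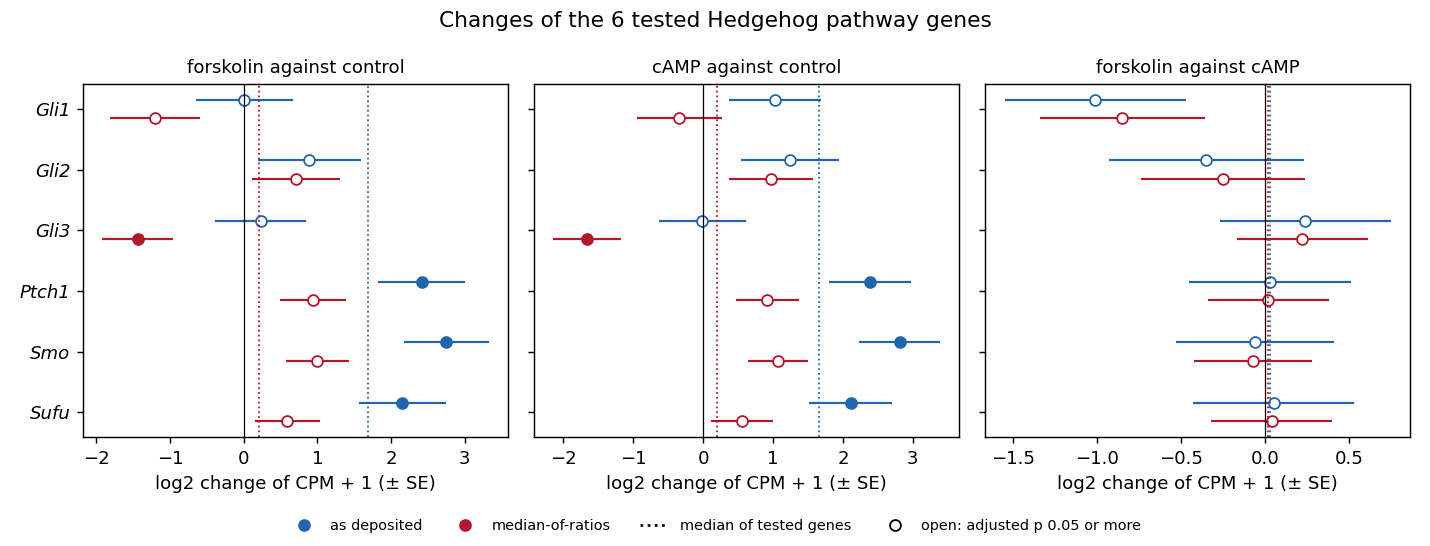
Log2 change of CPM + 1 with its SE for the 6 tested genes in the 3 comparisons, as deposited and after median-of-ratios scaling, with open symbols where the adjusted p was 0.05 or more and a line at the median of all tested genes. Smo, Ptch1 and Sufu pass against the control as deposited, and Gli3 passes on the lower side after scaling, though close to 0 as deposited.

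Gli1, the transcriptional activator whose own expression follows pathway activity, differed most between libraries of a treatment among the 6 tested members. Gli1 (ENSMUSG00000025407, chromosome 10, 127329889 to 127341589, minus strand) had 0.0627 and 3.11 CPM with forskolin, 3.45 and 3 CPM with cAMP and 1.07 CPM in the control. The estimated reads behind these values were 3.0 and 157.8, 178.3 and 102.6, and 53.0. Forskolin 1 thus lay at the floor, while the other treated libraries exceeded the control as deposited. After scaling the values were 0.0443 and 2.37 with forskolin, 2.11 and 2.69 with cAMP and 3.3 in the control, and the control was the highest.

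The log2 change of Gli1 was 0.01 ± 0.66 with forskolin (limma adjusted p = 0.988) and 1.03 ± 0.66 with cAMP (adjusted p = 0.153) as deposited, and -1.20 ± 0.61 (0.159) and -0.34 ± 0.61 (0.708) after scaling. The forskolin value turned on 1 library: after scaling it was -0.35 without forskolin 1 (adjusted p = 0.739) and -2.04 without forskolin 2 (adjusted p = 0.0254). Correction for GC content and length with that scaling gave -1.99 (adjusted p = 0.0376). Relative to Ptch1, which does not depend on scaling, Gli1 stood at 0.00678 and 0.26 with forskolin, 0.339 and 0.289 with cAMP and 0.93 in the control. Every treated library was below the control in this ratio, with the cAMP libraries above both forskolin libraries.

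Of 11 hair follicle bulge and germ markers, 2 had their lowest CPM in forskolin 1, and 3 after scaling (Cd34 in addition). The 2 were Lhx2 and Lgr5, named after their values were seen. Lhx2, a transcription factor of hair follicle progenitors, had 0.928 and 6.59 CPM with forskolin, 9.84 and 4.24 CPM with cAMP and 2.91 CPM in the control. Lgr5, a marker of cycling follicle stem cells, had 0.515 and 2.22 CPM, 3.48 and 3.42 CPM, and 0.685 CPM in the same order. The other 9, among them Krt15 (800 CPM in forskolin 1, against 261 CPM in the control), were not lowest there as deposited.

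All 12 dermal fibroblast and papilla markers were listed, and 7 of them had their lowest CPM in forskolin 1, or 8 after scaling. The markers not lowest there as deposited were Col6a1, Pdgfra, Pdgfrb, Fbln1 and Crabp1. The summed level of the 12 was 16.2 and 214 CPM with forskolin, 125 and 272 CPM with cAMP and 150 CPM in the control, with 3, 0, 0, 1 and 3 of the 12 under the floor in those libraries. Col1a2, a fibroblast collagen named after its values were seen, had 0.968 CPM in forskolin 1 and 38.3 to 97.6 CPM in the other treated libraries, against 52.3 CPM in the control. The summed level of 11 hair follicle bulge and germ markers, mostly Krt15, was 1048 and 807 CPM with forskolin, 1240 and 588 CPM with cAMP and 315 CPM in the control, so forskolin 1 was not low in it. Of 12 markers of the growing follicle 9 were listed, and their sum was 7.6 and 8.33 CPM with forskolin, 11.2 and 4.04 CPM with cAMP and 2.4 CPM in the control. The part of dermal and follicle cells in the Gli1 values was not tested, and in bulk RNA fewer cells of a type and less RNA per cell cannot be told apart.

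**Figure D3:**
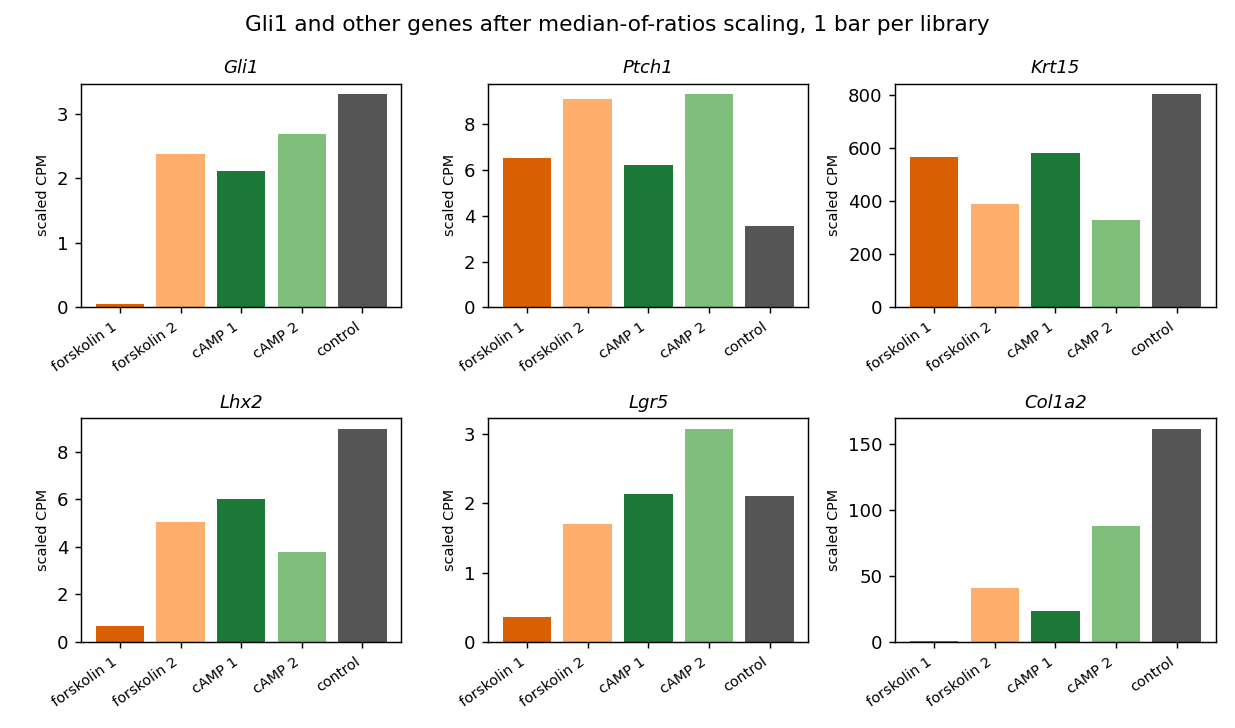
Scaled CPM per library, 1 bar each, of Gli1, Ptch1, Krt15, Lhx2, Lgr5 and Col1a2 after median-of-ratios scaling. Gli1, Lhx2, Lgr5 and Col1a2 have their lowest bar in forskolin 1, as 3 of 11 bulge and germ markers and 8 of 12 dermal markers do, while there Ptch1 (6.54) and Krt15 (566) lie within the range of the other treated libraries.

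Gli2, the main activator upstream of Gli1, was detected in each treated library and not in the control. Gli2 (ENSMUSG00000048402, chromosome 1, 118834132 to 119053619, minus strand) had 0.453 and 1.36 CPM with forskolin, 3.12 and 0.351 CPM with cAMP and the offset, 2.02e-06 CPM, in the control, or 22.0 and 69.0, 161.0 and 12.0, and 0.0 estimated reads. The cAMP libraries enclosed the forskolin pair. Against 3 reads in the control, mean CPM was at least 14.9-fold higher with forskolin and at least 28.5-fold higher with cAMP. On scaled values the bounds were 3.63 and 5.94. The limma test did not pass for either, with log2 changes of 0.89 ± 0.70 (adjusted p = 0.245) and 1.24 ± 0.70 (adjusted p = 0.107) as deposited and 0.71 ± 0.60 (0.404) and 0.97 ± 0.60 (0.255) after scaling. The cAMP value turned on cAMP 1: as deposited it was 0.43 without that library (adjusted p = 0.627) and 2.04 without cAMP 2 (adjusted p = 0.0171), and after scaling 0.39 (adjusted p = 0.694) and 1.54 (adjusted p = 0.11). It also passed as deposited with a pseudocount of 0.1 (3.59, adjusted p = 0.0479). Gli2 was below 1 CPM in the control and entered the test through treated libraries alone.

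Gli3, the family member that acts chiefly as a repressor, had the flattest CPM. Gli3 (ENSMUSG00000021318, chromosome 13, 15463980 to 15730026, plus strand) had 2.89 and 4.03 CPM with forskolin, 3.52 and 2.09 CPM with cAMP and 2.77 CPM in the control. Treated and control libraries overlapped. After scaling the levels were 2.04 and 3.07 with forskolin and 2.15 and 1.88 with cAMP, against 8.52 in the control, with no overlap.

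The log2 change of Gli3 was 0.23 ± 0.62 with forskolin (adjusted p = 0.737) and -0.01 ± 0.62 with cAMP (adjusted p = 0.987) as deposited, and after scaling -1.44 ± 0.48 (0.0392) and -1.66 ± 0.48 (0.0181), at percentiles 5.8 and 4.6 of all tested genes. Both libraries of a treatment lay below the control for 35.3% of tested genes with forskolin and 34.8% with cAMP after scaling, and for 2.72% and 3.04% as deposited. The scaled forskolin call was lost without forskolin 1 (-1.23, adjusted p = 0.161) or forskolin 2 (-1.65, adjusted p = 0.0605), and the cAMP call without cAMP 2 (-1.59, adjusted p = 0.0568) but not without cAMP 1 (-1.73, adjusted p = 0.0453). The ratio of Gli3 to Smo within a library was 0.163 and 0.127 with forskolin, 0.124 and 0.0968 with cAMP and 1.04 in the control, which shows an unequal change of the pair under any scaling of whole libraries. After scaling the summed dermal markers stood at 11.5 and 163 with forskolin, 76.4 and 244 with cAMP and 460 in the control, and the 6 suprabasal keratinocyte markers at 2115 and 1931, 1787 and 1118, and 5780. Both sums were, like Gli3, highest in the control. So were those of the bulge and germ (969), growing follicle (7.39), endothelial (3.38) and skeletal muscle (186) markers, while the sums of the other marker lists were not. Within the dermal list Lum, Col6a1, Pdgfra, Pdgfrb, Fbln1 and Crabp1 were not highest in the control. Nor were Lgr5, Sox9, Nfatc1, Lgr6, Lrig1 and Postn of the bulge and germ list. Of the growing follicle list Msx2, Hoxc13, Dlx3, Krt25, Krt27 and Krt71 were not highest there, nor was Des of the muscle list. Cdh5, Kdr and Emcn were at the offset in the control, so the endothelial sum there was that of Pecam1. The part of these lists in the Gli3 value was not tested.

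Hhip (ENSMUSG00000064325, chromosome 8, 79970345 to 80058006, minus strand), a secreted and membrane-bound decoy for Hedgehog ligands, was at the offset in forskolin 1, both cAMP libraries and the control, and had 0.288 CPM (14.6 estimated reads) in forskolin 2. It did not reach 1 CPM in any library, so it was not tested and no fold is given. Of the printed promoters, that of Hhip held the full cAMP response element.

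Between forskolin and cAMP none of the 6 tested members passed, where 0.378% of all tested genes did (0.189% higher and 0.189% lower), nor after scaling, where 0.443% did (0.124% higher and 0.320% lower). With limma, the sole tool used, 0 members had an unadjusted p under 0.05 on either scale. The log2 difference, forskolin minus cAMP, was -1.01 for Gli1 (95% interval -2.07 to 0.05, adjusted p = 0.755) and -0.35 for Gli2 (-1.48 to 0.78, adjusted p = 0.994). It was 0.24 for Gli3 (-0.76 to 1.24, adjusted p = 0.996), 0.03 for Ptch1 (-0.91 to 0.97), -0.06 for Smo (-0.99 to 0.86) and 0.05 for Sufu (-0.90 to 0.99), each of the last 3 with an adjusted p of 0.999. Each interval includes 0 and reaches 0.97 log2 units or more in at least 1 direction, so equality of the compounds is not shown. The compounds differ in structure, forskolin being a diterpene and cAMP a cyclic nucleotide, and they were applied at different concentrations.

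Transcript shares within a gene added a further contrast between libraries. Ptch1-005, a protein-coding transcript, held 98% of the Ptch1 sum in forskolin 1 and 57% in forskolin 2, 98% in both cAMP libraries and 98% in the control. In forskolin 2 the protein-coding Ptch1-001 held 37.9% (4.54 CPM), against 0.794% in each of the other 4 libraries. Shares that match to 3 digits in 4 libraries came from the deposited values, and the sources used here do not give how reads were divided among transcripts. The printed Ptch1 window ends at the start of Ptch1-001, while Ptch1-005 starts 1200 bases downstream.

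Sufu-001 held 87% and 92.9% of the Sufu sum with forskolin, 97.4% and 43% with cAMP and 100% in the control. In cAMP 2 the shorter Sufu-004 held 36.8%, Sufu-003 11.9% and Sufu-006, a processed transcript of 334 bases, 8.24%. The library with the most divided Sufu was thus cAMP 2, and that with the most divided Ptch1 was forskolin 2. Smo-002, a retained-intron transcript, held 4.03% of Smo (64.6 estimated reads) in forskolin 2 and under 1 read elsewhere. Forskolin 2 was also the library with the most 18S rRNA, 55450.5 CPM of Rn18s-rs5, against 1039.0 CPM in forskolin 1, 1515.2 and 1645.0 CPM with cAMP and 239.7 CPM in the control. Whether rRNA content bears on these transcript shares was not tested. Gli1, Gli2, Gli3 and Hhip were each listed with 1 transcript.

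**Figure D4:**
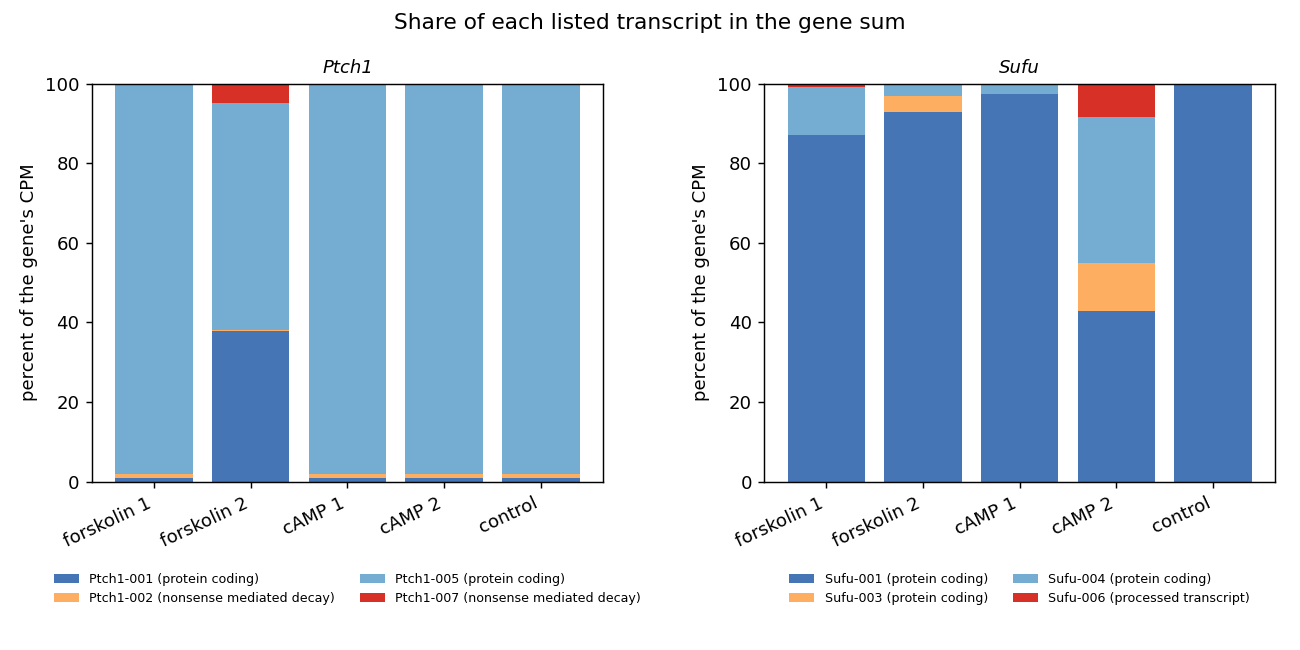
Stacked bars of the percent of the summed CPM of Ptch1 and Sufu held by each listed transcript, 1 bar per library. Ptch1-001 takes 37.9% in forskolin 2 alone, and Sufu-001 falls to 43% in cAMP 2.

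The genes whose scaled pattern over the 5 libraries was most like that of each member were read off by Pearson's r on log2(scaled CPM + 1), among 11440 genes (11441 for Gli2), as a description. They were Rad9a (r = 0.9961) and Mul1 (0.9898) for Gli1, Lonp1 (0.9984) and Sytl1 (0.9935) for Gli2, and Eef2k (0.9985) and Arl4c (0.9984) for Gli3. For Ptch1 they were Wdr81 (0.9984) and Nav3 (0.9982), for Smo H6pd (0.9971) and Extl3 (0.9965), and for Sufu Epb4.1l1 (0.9981) and Brap (0.9981). All of these values share the same 5 libraries, of which the control stands apart, and none was tested.

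A wider list of 66 names of the pathway, arranged by role, had 60 names listed and 52 tested. Shh, Ihh, Dhh, Mosmo, Grk2 and Snai1 were not among the listed names, Grk2 standing under its older symbol Adrbk1. Scube1, Scube3, Lrp2, Stk36, Mycn, Foxe1, Foxf1 and Pdgfra were listed but too low to test. As deposited 43 of 52 rose and 0 fell with forskolin, and 38 rose and 0 fell with cAMP. Among all genes 66.3% and 65.1% were higher and 0.341% and 0.436% lower. The list medians were 2.07 and 1.91 against 1.69 and 1.66 for all genes. They were 2.11 and 1.92 when genes below the floor in the control took their bound. Such bounds lack the added 1 and were not set for all genes, so that pair is not comparable with the medians of all genes. After scaling 10 rose and 3 fell with forskolin, and 10 rose and 4 fell with cAMP, with medians of 0.29 and 0.20 against 0.21 and 0.20 for all genes. Of all tested genes, 14.9% with forskolin and 15.4% with cAMP were higher after scaling, and 6.79% and 7.23% lower. Of the 52, 17 were below 1 CPM in the control and passed the filter through treated libraries alone, and these hold 9 of the 10 that rose in each treatment. A gene admitted in that way had to have a higher CPM in treated libraries as deposited, so the counts of rises describe the list and support nothing about it.

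By role, 7 of 18 tested genes for the cilium and for Smo, Sufu or Gli handling rose after scaling in each treatment. The median of the 18 was 1.09 with forskolin and 0.70 with cAMP. Over all tested genes 14.9% and 15.4% rose, with medians of 0.21 and 0.20. The 7 were Iqce, Kif3a, Inpp5e, Tulp3, Gpr161, Ift88 and Ulk3, and all but Ulk3 were among the 10 of the 18 that passed the filter through treated libraries alone. The share of all tested genes admitted in that way was not computed, so the 7 are a description only. After scaling the summed level of 8 sebocyte markers, mostly Scd1, was also higher in treated libraries. It stood at 923 and 1642 with forskolin, 2648 and 4436 with cAMP and 457 in the control. Awat2 of that list was lower than in the control (9.96) in both forskolin libraries (3.15 and 4.46) and cAMP 1 (9.54). The sum of 3 proliferation markers was 119 and 111 with forskolin, 91.5 and 96.4 with cAMP and 34.1 in the control. The part of either marker list in the cilium genes was not tested. Iqce, which tethers the Evc complex at the cilium base, had 7.26 and 11.1 CPM with forskolin, 10.5 and 4.07 CPM with cAMP and less than the floor in the control, so its mean was at least 151-fold higher with forskolin and 120-fold higher with cAMP, or 36.5-fold and 26.9-fold on scaled values. Inpp5e, a ciliary phosphoinositide phosphatase, had 15.1 and 13.4 CPM with forskolin, 20.6 and 10.3 CPM with cAMP and 0.484 CPM in the control. It changed by 3.36 ± 0.58 with forskolin (limma adjusted p = 4.71e-07) and 3.40 ± 0.58 with cAMP (adjusted p = 3.25e-07) as deposited, and by 2.21 ± 0.43 (0.00165) and 2.25 ± 0.43 (0.00117) after scaling. Both genes were above the control in every treated library. Both entered the test through treated libraries alone, so the p-values are descriptive.

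Gpr161, a ciliary receptor that raises cAMP and restrains the pathway, had 4.93 and 3.81 CPM with forskolin, 4.57 and 2.46 CPM with cAMP and the offset in the control, and was at least 17.1-fold and 13.4-fold higher on scaled values. Tulp3, which carries Gpr161 into the cilium, had 3.26 and 5.43 CPM with forskolin, 4.64 and 4.56 CPM with cAMP and less than the floor in the control. Kif3a and Ift88, parts of the transport machinery that builds the cilium, had 0.0608 and 0.243 CPM in the control. After scaling they changed by 2.26 ± 0.47 and 1.90 ± 0.48 with forskolin and by 2.40 ± 0.47 and 1.67 ± 0.48 with cAMP (limma adjusted p between 0.00139 and 0.0185). Like Gpr161 and Tulp3, they entered the test through treated libraries alone, so these p-values are descriptive. Ulk3, a kinase reported to act on Gli proteins, had 18.6 and 17.2 CPM with forskolin, 20.1 and 15.5 CPM with cAMP and 1.48 CPM in the control. Efcab7, which works with Iqce, fell after scaling in both treatments (-1.74, adjusted p = 0.0333, and -1.91, adjusted p = 0.0196). As deposited it was not called (-0.45, limma adjusted p = 0.554, and -0.62, adjusted p = 0.424). Its CPM was 0.721 and 0.63 with forskolin, 1.24 in cAMP 1, less than the floor in cAMP 2 and 1.3 in the control. Efcab7 thus entered the test through the control and cAMP 1 alone, so its p-values are descriptive. Gpr161, Tulp3, Kif3a, Ift88 and Efcab7 were chosen for naming after their values were seen.

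Among reported Gli targets, 2 of 8 tested genes rose and 1 fell after scaling in each treatment. Over all tested genes 14.9% and 15.4% rose and 6.79% and 7.23% fell. The 2 that rose, Cdk6 and Foxm1, were below 1 CPM in the control and entered the test through treated libraries alone. Their p-values are thus descriptive. Cdk6, a cell cycle kinase, had 19.8 and 34.2 CPM with forskolin, 22.8 and 20.9 CPM with cAMP and 0.551 CPM in the control. Its log2 change was 4.13 ± 0.58 with forskolin (adjusted p = 8.2e-10) and 3.88 ± 0.58 with cAMP (adjusted p = 4.51e-09) as deposited, and 2.90 ± 0.44 (0.000241) and 2.67 ± 0.44 (0.000372) after scaling. Foxm1, a mitotic transcription factor, had 14.9 and 8.94 CPM with forskolin, 11.1 and 6.76 CPM with cAMP and less than the floor in the control, at least 46.4-fold and 34.4-fold higher on scaled values. The summed level of 3 proliferation markers was 169 and 145 CPM with forskolin, 150 and 108 CPM with cAMP and 11.1 CPM in the control, and its part in Foxm1 and Cdk6 was not tested. The gene that fell was Ccnd1, cyclin D1 (-1.51, adjusted p = 0.0115, with forskolin and -1.81, adjusted p = 0.00319, with cAMP), which as deposited stood at 31.8 and 20.1 CPM with forskolin, 23.2 and 17.4 CPM with cAMP and 17.8 CPM in the control.

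Of 16 kinases and degradation factors, 1 rose (Btrc, which marks Gli proteins for processing) and 1 fell (Spop, an adaptor for Gli degradation) after scaling in each treatment. The shares of all tested genes were 14.9% with forskolin and 15.4% with cAMP for a rise, and 6.79% and 7.23% for a fall. Btrc had 0.223 CPM in the control and entered the test through treated libraries alone, so its call is descriptive. As deposited Spop was not lower, at 63 and 40.4 CPM with forskolin, 57.6 and 58.8 CPM with cAMP and 37.6 CPM in the control. Ccnd1, Btrc, Spop and Prkaca were named after their values were seen. Of 7 tested coreceptors and 3 tested genes for ligands and their release, 0 passed after scaling in either treatment. Among all tested genes 21.7% passed with forskolin and 22.7% with cAMP. Prkaca, the catalytic subunit of protein kinase A, had 16.1 and 26.9 CPM with forskolin, 33.3 and 23.2 CPM with cAMP and 4.01 CPM in the control, with scaled changes of 0.29 ± 0.42 (adjusted p = 0.634) and 0.70 ± 0.42 (adjusted p = 0.235). Between forskolin and cAMP 0 of the 52 passed on either scale, where 0.378% of all tested genes did as deposited and 0.443% after scaling. After scaling 2 of the 52 had an unadjusted limma p under 0.05, Arl13b (0.000762) and Arrb1 (0.0257). As deposited 1 of the 52 did. This was Arl13b, a ciliary GTPase, with 29.2 and 15.1 CPM with forskolin and 8.22 and 5.82 CPM with cAMP, a log2 difference of 1.47 ± 0.47 (adjusted p = 0.212). The next by p were Arrb1 (0.81), Dyrk2 (0.82) and Gpc3 (-0.90), with adjusted p between 0.826 and 0.88. Arl13b was lower with cAMP than in the control after scaling (-1.65, adjusted p = 0.0111), where the control stood at 18.2 scaled CPM, but not as deposited, where it stood at 5.91 CPM.

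**Figure D5:**
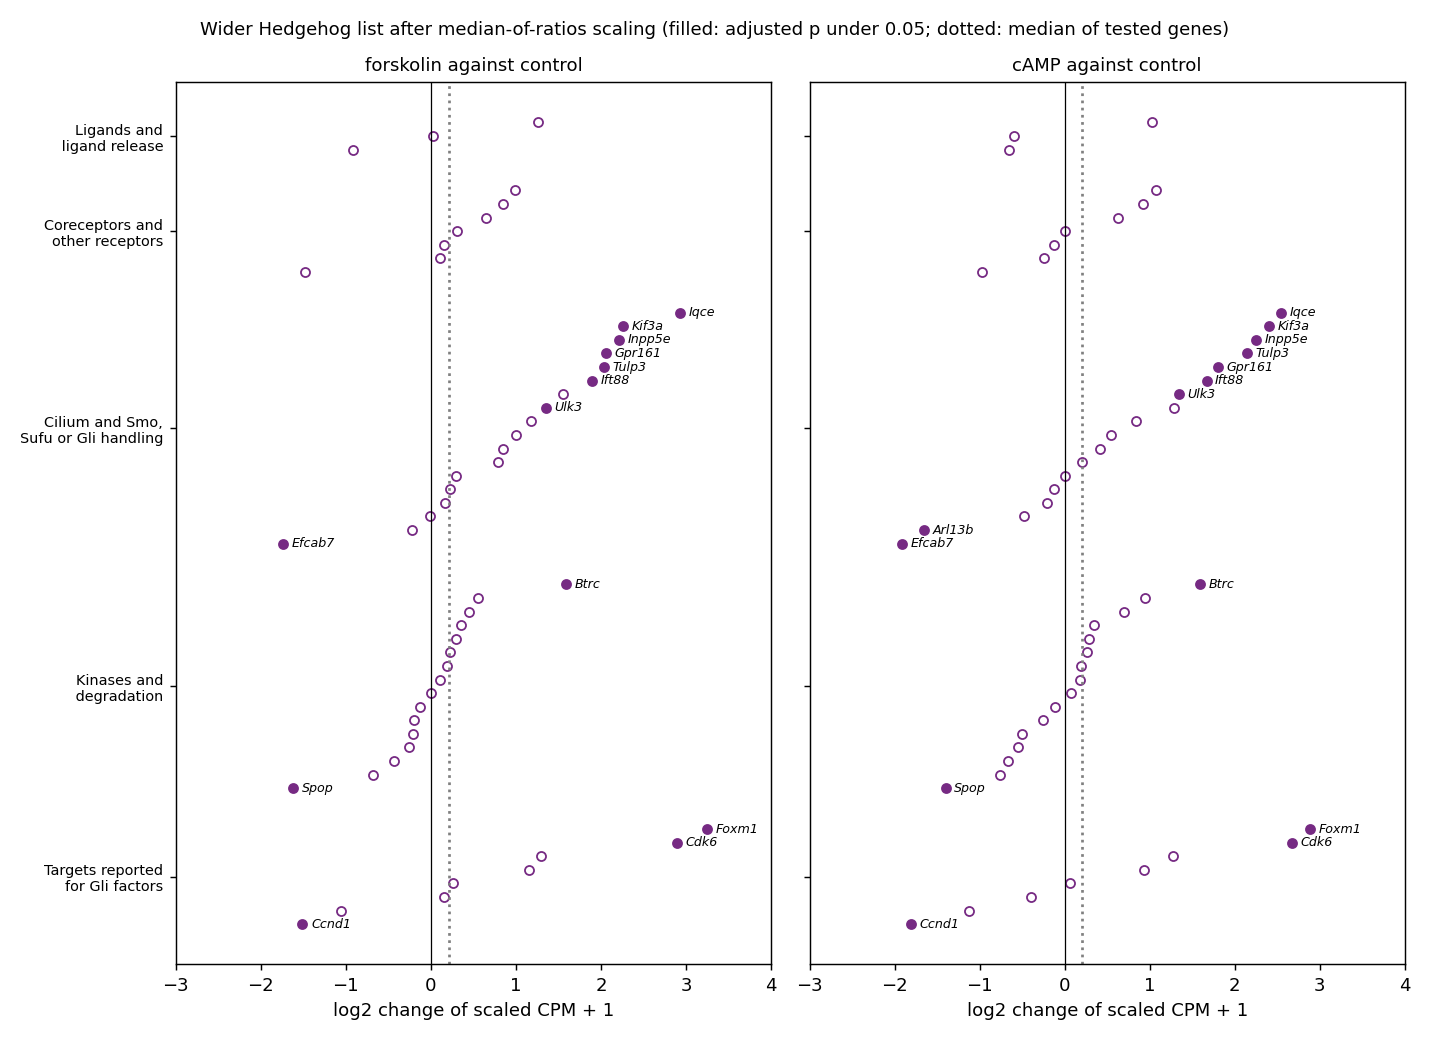
Log2 change of scaled CPM + 1 against the control for the 52 tested genes of the wider list, by role, after median-of-ratios scaling, with filled points for an adjusted p under 0.05 and a dotted line at the median of all tested genes. Most filled points above 0 belong to the cilium and handling genes, 7 in each panel, while ligands and coreceptors have none. All but Ulk3 of those 7 entered the test through treated libraries alone. Over all tested genes 14.9% with forskolin and 15.4% with cAMP were higher.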

How the data were processed

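Total epidermis was obtained by dissection and overnight trypsin treatment, and stranded mRNA libraries were sequenced, per the labels' protocols. The submitters' processing notes name STAR, Partek and bcl2fastq 2.17. Genome build, annotation and settings are not given in the sources used here. Per-transcript values are in CPM as the authors deposited them, a unit read from column sums of 805255.8 to 947144.3. Transcripts were summed per gene. Taking the offset in place of 0 as 0.0001 read gave estimated reads, of which 59.6% to 75.7% of gene sums lay within 0.1 of a whole number (20% by chance), so no count model was run. Columns were matched to samples by prefix and number of the library code. Coordinates follow the table, with ends 1 base lower to match GENCODE M21 (GRCm38), which held 98.3% of the transcripts and, of those, 90.8% with the same start and end. Lengths per kilobase come from that annotation.

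limma 3.58.1 (R 4.3.3) with an intensity trend was fitted to log2(CPM + 1) of 13764 genes that reached 1 CPM in 2 or more libraries, all 5 libraries and 3 groups in 1 fit, 2-sided, with Benjamini-Hochberg adjustment over all genes. Fold changes on this scale understate low genes. Prior degrees of freedom were 360.2 (16.4 after median-of-ratios scaling over 11935 genes) beside 2 residual ones, so the spread came mostly from the trend over genes. The single control was assumed to vary as treated libraries do, and p-values reflect library-to-library spread alone, possibly technical. The members and lists were chosen with earlier results of these data known. Named genes were all members, the 4 wider-list genes of smallest p per comparison, genes absent or at the offset, and the 2 genes most like each member. Other named genes, including the cell type markers Krt14, Krt15, Lhx2, Lgr5 and Col1a2, were chosen after their values were seen. Scaling, filter, pseudocount, spread, transcripts, samples and replicates were varied.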

Additional observations from a re-analysis of the deposited data

How the results depend on the processing

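Gli1 in forskolin 1, Gli2 in the control and Hhip outside forskolin 2 each rested on 3 reads or fewer. The single control limits every comparison with it. Rescaling changed the most: the members higher and lower against the control (3 and 0 as deposited in both comparisons) became 0 and 1 under median-of-ratios scaling, quantile normalization, scaling to nuclear reads and a filter after median-of-ratios scaling with either treatment, and with GC and length correction added, 0 and 2 with forskolin and 0 and 1 with cAMP. In the same order of settings the wider list, 43 higher and 0 lower with forskolin, gave 10 and 3, 5 and 4, 12 and 3, 10 and 2, and with GC and length 9 and 3; with cAMP (38 and 0) it gave 10 and 4, 3 and 4, 10 and 4, 10 and 3, and 9 and 6. All genes with forskolin (9130 and 47) gave 2051 and 934, 1018 and 884, 2266 and 810, 2023 and 899, and 1694 and 1720; with cAMP (8965 and 60) 2126 and 995, 1109 and 936, 2142 and 959, 2101 and 939, and 1863 and 1875. Without a filter all genes gave 5917 and 320 with forskolin and 5918 and 408 with cAMP, and with protein-coding transcripts 25 and 34 were lower. For forskolin against cAMP (26 and 26) the counts were 17 and 44 with median-of-ratios scaling, 8 and 11 with GC and length, 9 and 7 with a pseudocount of 0.1, 0 and 0 without a filter and 6 and 0 with protein-coding transcripts; quantile normalization gave 13 higher and the later filter 50 lower. The cause of these shifts was not tested. Leaving out 1 replicate gave 5259 to 10200 higher and 24 to 57 lower with forskolin, 43 to 104 lower with cAMP, and 8 to 63 higher and 3 to 26 lower between the treatments. The lowest count of 5259 came without forskolin 1.

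Directions turned for Gli1 with forskolin (0.01 as deposited): -1.20, -1.35, -1.17, -1.20 and -1.99 in the order above and -0.70 with a pseudocount of 0.1. Leaving out 1 replicate gave it -0.96 to 0.99 as deposited and -2.04 to -0.35 after median-of-ratios scaling. With cAMP (1.03) Gli1 gave -0.34, -0.52, -0.33, -0.34 and -0.98, and -0.47 to -0.22 after scaling without a replicate. Gli3 with forskolin (0.23) gave -1.44, -1.55, -1.38, -1.44 and -1.79, and -1.65 to -1.23 after scaling without a replicate. With cAMP (-0.01) it gave 9.3e-04 with a pseudocount of 5 and -0.29 to 0.26 without a replicate. With GC and length correction Gli2 gave -0.05 and Sufu -0.03 with forskolin, and between the treatments Gli3 gave -0.09, Ptch1 -0.37 and Sufu -0.11. Between the treatments, leaving out 1 replicate gave Gli2 -1.15 to 0.45 as deposited (5.9e-04 without forskolin 1) and, after scaling, up to 0.06 without forskolin 1 and 0.32 without cAMP 1. Gli3 ran from -0.03 to 0.51, Ptch1 from -0.14 to 0.20 as deposited and, scaled, from -0.24 (-0.20 without forskolin 2) to 0.28, Smo from -0.46 to 0.34 and, scaled, from -0.52 to 0.38 (0.01 without cAMP 2), and Sufu from -0.16 to 0.25 and, scaled, from -0.19 (-0.01 without cAMP 1) to 0.26. No member passed in these. Median-of-ratios scaling with a replicate left out was added after seeing the data. The replicate numbers did not pair the samples (correlation of deviations -0.05): with a replicate block 28 genes were higher and 27 lower between the treatments, and 0 members passed.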
